A study of Mus musculus with 15 samples.

Results

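The 10 genes described here encode parts of the T cell receptor complex and its helpers. They were chosen by name, with earlier results of these data known: Cd3d, Cd3e, Cd3g and Cd247 (signaling chains), Cd4, Cd8a and Cd8b1 (coreceptors), Lck (a kinase), and Cd2 and Cd28 (adhesion and costimulation). All 10 were found among the 32543 genes of the count table and all 10 passed the filter on low counts, which 15494 genes passed. RNA was measured in 15 tumors grown under the skin of female wild-type BALB/c mice from WEHI-164 cells, which are a mouse fibrosarcoma line, so the groups share 1 line and 1 strain. The 3 day 0 tumors were untreated. Poly(I:C) was injected daily into 12 tumors, which were taken on day 1, 3, 5 or 7, with 3 tumors a day. Per the study's methods, daily dosing lasted at most 6 days and harvest days were counted from the first dose. Poly(I:C), a man-made double-stranded RNA, imitates viral RNA and is sensed by Toll-like receptor 3. Per the labels, each injection was 1 µg in 25 µL for a planned total of 6 doses, although another part of the study gives a higher daily amount, so the dose is uncertain. Treatment and time after day 0 cannot be told apart in this design, because no tumor is labelled as receiving a vehicle alone. The labels do not name the animal behind each tumor beyond a replicate number, so the p-values below measure the spread between these tumors.

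The T cell receptor recognizes peptides held by MHC molecules but has almost no signaling tail of its own. The CD3 chains and the zeta chain, made from Cd247, carry the signal into the cell. CD4 and CD8 bind MHC class II and class I, respectively, and bring the kinase LCK to the receptor, which then phosphorylates the CD3 and zeta tails. CD2 strengthens contact with other cells, and CD28 gives the second signal that full activation needs. In a tumor, RNA of these genes is read as a sign of infiltrating T cells, and the CD8 and CD4 genes as signs of the cytotoxic and helper classes. In whole tumors, however, fewer T cells and less RNA per T cell cannot be told apart.

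The 15 tumors held between 23713090 and 31913106 counts each, so that 3 counts, the most that a count of 0 allows, corresponded to 0.094 to 0.127 CPM (counts scaled to a library total with TMM factors). This limit covers counting error only. The 10 genes had between 17 and 1861 counts per tumor, and none was at 0 in any tumor. Day 3 replicate 1 stood apart from the other libraries. Its mean correlation with the other 14 over all genes tested was 0.884, whereas every other library reached at least 0.956. Its summed level of skeletal muscle markers was 3483 CPM, against 181 CPM or less elsewhere. Its lymph node stroma markers summed to 164 CPM. The other day 3 tumors were at 42.3 and 6.69 CPM for that list, and no tumor of another day was above 19.4 CPM. Per the study's methods, tissue around the tumors was removed before RNA was preserved. Because day 3 replicate 1 stood apart, results that rest on it are given with and without it. The day 3 tumor at 42.3 CPM stays in both. The fibroblast and sarcoma markers summed to 9732 to 16181 CPM in the other tumors and to 32920 CPM in day 3 replicate 1. Of this list, Col1a1, Col1a2, Col3a1, Sparc, Pdgfrb and Thy1 had their highest count in that tumor, whereas Vim, Fn1 and S100a4 did not. Which cells carried the RNA of this list was not tested.

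Cd3d, Cd3e and Cd3g lie side by side on mouse chromosome 9, and Cd8a lies beside Cd8b1 on chromosome 6. In GENCODE M21 on GRCm38, Cd3g spans chr9:44969572-44980431 on the minus strand and Cd3d spans chr9:44981786-44987339 on the plus strand. Their starts therefore face away from each other across a short gap, and Cd3e follows at chr9:44998740-45009627 on the minus strand. Cd8b1 spans chr6:71322788-71337494 and Cd8a spans chr6:71373427-71379173, both on the plus strand, and Cd4 spans chr6:124864692-124888221 on the minus strand. RefSeq promoter windows on GRCm38.p6, from 250 bases before to 50 after the start, were matched for 6 of the 10 genes (Cd3d, Cd3e, Cd3g, Cd247, Cd8a and Lck, the last with 2 windows). The 250 bases before the start are shown for the 3 CD3 genes and for Cd8a. Their levels moved together from tumor to tumor, as did those of all 10 genes, neighbors or not. Capitals mark matches, on either strand, to GGAAG (the core bound by ETS factors), TGTGGT (RUNX factors) or CAGNTG (an E-box), which are motifs of factor families known from T cell genes.
Cd3g, chr9:44980432-44980681, minus strand: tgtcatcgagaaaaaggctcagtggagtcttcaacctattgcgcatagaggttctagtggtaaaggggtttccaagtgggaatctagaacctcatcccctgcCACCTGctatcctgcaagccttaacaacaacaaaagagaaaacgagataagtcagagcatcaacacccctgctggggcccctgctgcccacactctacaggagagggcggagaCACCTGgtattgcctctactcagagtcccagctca
Cd3d, chr9:44981536-44981785, plus strand: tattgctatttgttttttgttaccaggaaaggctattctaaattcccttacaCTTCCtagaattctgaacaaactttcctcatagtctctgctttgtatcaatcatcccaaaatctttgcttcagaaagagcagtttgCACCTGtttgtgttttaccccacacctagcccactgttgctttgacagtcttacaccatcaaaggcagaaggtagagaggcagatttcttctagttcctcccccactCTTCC
Cd3e, chr9:45009612-45009861, minus strand: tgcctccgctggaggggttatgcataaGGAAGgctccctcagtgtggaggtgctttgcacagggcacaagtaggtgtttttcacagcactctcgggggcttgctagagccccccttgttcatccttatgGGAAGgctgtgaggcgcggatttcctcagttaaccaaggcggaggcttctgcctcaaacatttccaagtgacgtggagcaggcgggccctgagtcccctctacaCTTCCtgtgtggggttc
Cd8a, chr6:71373177-71373426, plus strand: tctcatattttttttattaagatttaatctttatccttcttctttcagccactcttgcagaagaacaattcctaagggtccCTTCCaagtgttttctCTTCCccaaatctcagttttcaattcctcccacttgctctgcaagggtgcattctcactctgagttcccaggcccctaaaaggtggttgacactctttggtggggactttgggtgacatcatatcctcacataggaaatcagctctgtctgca
In the printed stretches, Cd3e held 3 ETS matches, Cd3d held 2 and Cd8a held 2, whereas Cd3g held 0 ETS and 2 E-box matches. Over the whole windows of 300 bases, 6 of 7 held an ETS match, 7 of 7 an E-box match and 1 of 7 a RUNX match. The same motifs were found in 71.4%, 51.4% and 16.8%, respectively, of all 32851 windows of that length. These matches describe letters and not binding.

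The mean levels of the CD3 genes were low at day 0, highest at day 3 and low again at day 7. For Cd3d, Cd3e and Cd3g, the order of the day 3 and day 5 means rested on 1 tumor. Without day 3 replicate 1, the day 3 mean was above the day 5 mean in 4 of the 10 genes (Cd247, Cd8b1, Lck and Cd28) and below it in 6. Cd3e then had means of 8.31 CPM on day 3 and 8.77 CPM on day 5, and Cd3g of 10.3 and 12.2 CPM. These day 5 means kept day 5 replicate 1, the second highest tumor in 10 of 10 genes. Averaged over the 10 genes, log2 CPM was 3.36 and 3.49 in day 3 replicates 2 and 3, against 3.08 ± 1.28 on day 5 (SD, n = 3 tumors). Cd3e, whose product pairs with the CD3 delta and gamma chains, was at 2.19, 3.57 and 3.48 CPM in day 0 replicates 1 to 3, at 1.54, 2.23 and 6.74 CPM on day 1, at 28.5, 6.65 and 9.96 CPM on day 3, at 15.9, 8.25 and 2.12 CPM on day 5 and at 1.38, 4.30 and 0.711 CPM on day 7. The 3 day 3 tumors were all above the 3 day 0 tumors, whereas the day 1, 5 and 7 tumors overlapped with day 0. Cd3g, the gamma chain, was at 2.90, 4.69 and 5.04 CPM on day 0, at 2.77, 2.15 and 8.78 CPM on day 1, at 38.5, 9.67 and 10.9 CPM on day 3, at 21.9, 11.2 and 3.48 CPM on day 5 and at 1.51, 5.74 and 0.752 CPM on day 7. Cd3d, the delta chain, was at 1.45, 2.46 and 2.76 CPM on day 0, at 1.27, 1.79 and 4.08 CPM on day 1, at 16.4, 4.78 and 5.29 CPM on day 3, at 9.33, 5.83 and 2.30 CPM on day 5 and at 1.51, 3.16 and 1.17 CPM on day 7. Both had the order of Cd3e, with day 3 replicate 1 highest, day 5 replicate 1 next and day 7 replicate 3 lowest. Cd247, which encodes the zeta chain with most of the signaling motifs of the complex, was at 2.43, 5.03 and 3.40 CPM on day 0, at 3.94, 4.23 and 8.01 CPM on day 1, at 21.6, 10.7 and 10.5 CPM on day 3, at 14.3, 7.36 and 2.98 CPM on day 5 and at 3.17, 8.67 and 2.84 CPM on day 7. It was the 1 gene of the 10 with a higher fitted level on day 7 than on day 0, by a difference smaller than its standard error.

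The coreceptor genes also had their highest mean on day 3, which for Cd4 and Cd8a rested on day 3 replicate 1 (without it, Cd4 averaged 12.5 CPM on day 3 and 13.5 CPM on day 5, and Cd8a 19.9 and 20.6 CPM). On each of the 5 days the gene with the widest ratio of highest to lowest tumor was a coreceptor, Cd8b1 on days 0 and 1 and Cd4 on days 3, 5 and 7. Cd8a, the alpha chain of CD8, was at 5.33, 9.12 and 8.97 CPM on day 0, at 3.94, 4.91 and 17.3 CPM on day 1, at 48.3, 16.3 and 23.5 CPM on day 3, at 30.2, 25.4 and 6.11 CPM on day 5 and at 3.78, 12.7 and 2.88 CPM on day 7. Cd8b1, the beta chain found on conventional cytotoxic T cells, was at 1.25, 2.61 and 2.20 CPM on day 0, at 1.34, 1.28 and 5.93 CPM on day 1, at 24.8, 5.77 and 7.90 CPM on day 3, at 9.33, 7.86 and 1.83 CPM on day 5 and at 0.814, 3.50 and 0.752 CPM on day 7. In both genes the 2 lower day 3 tumors stood above every day 0 tumor. Cd4, the helper cell coreceptor that some dendritic cells also carry, was at 7.15, 6.67 and 6.61 CPM on day 0, at 4.64, 3.51 and 12.4 CPM on day 1, at 74.9, 14.4 and 10.6 CPM on day 3, at 29.6, 7.68 and 3.34 CPM on day 5 and at 1.83, 9.09 and 1.17 CPM on day 7. Cd4 had the tightest day 0 tumors of the 10 genes, whose highest value was 1.08 times the lowest, and the widest day 3 tumors, with a ratio of 7.08.

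Lck, Cd2 and Cd28 also had their highest mean on day 3, and without day 3 replicate 1 Lck and Cd28 (the latter 10.4 against 9.40 CPM) were still above their day 5 means, but not Cd2 (10.5 against 10.6 CPM). Lck, the kinase that starts signaling, was at 7.52, 8.94 and 10.9 CPM on day 0, at 6.95, 7.18 and 19.1 CPM on day 1, at 64.1, 26.3 and 21.7 CPM on day 3, at 37.8, 21.0 and 7.29 CPM on day 5 and at 4.64, 13.0 and 4.81 CPM on day 7. Cd2, an adhesion receptor also carried by natural killer cells, was at 3.74, 4.24 and 3.96 CPM on day 0, at 2.27, 2.19 and 7.91 CPM on day 1, at 34.8, 10.8 and 10.3 CPM on day 3, at 20.1, 8.82 and 2.80 CPM on day 5 and at 1.46, 6.20 and 1.05 CPM on day 7. Cd28, the costimulatory receptor, was at 3.10, 3.05 and 3.60 CPM on day 0, at 2.54, 2.55 and 7.62 CPM on day 1, at 26.3, 9.19 and 11.6 CPM on day 3, at 17.4, 8.32 and 2.51 CPM on day 5 and at 1.22, 4.98 and 1.09 CPM on day 7. For all 3 genes, the day 3 tumors did not overlap with the day 0 tumors or with the day 7 tumors.

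**Figure D1:**
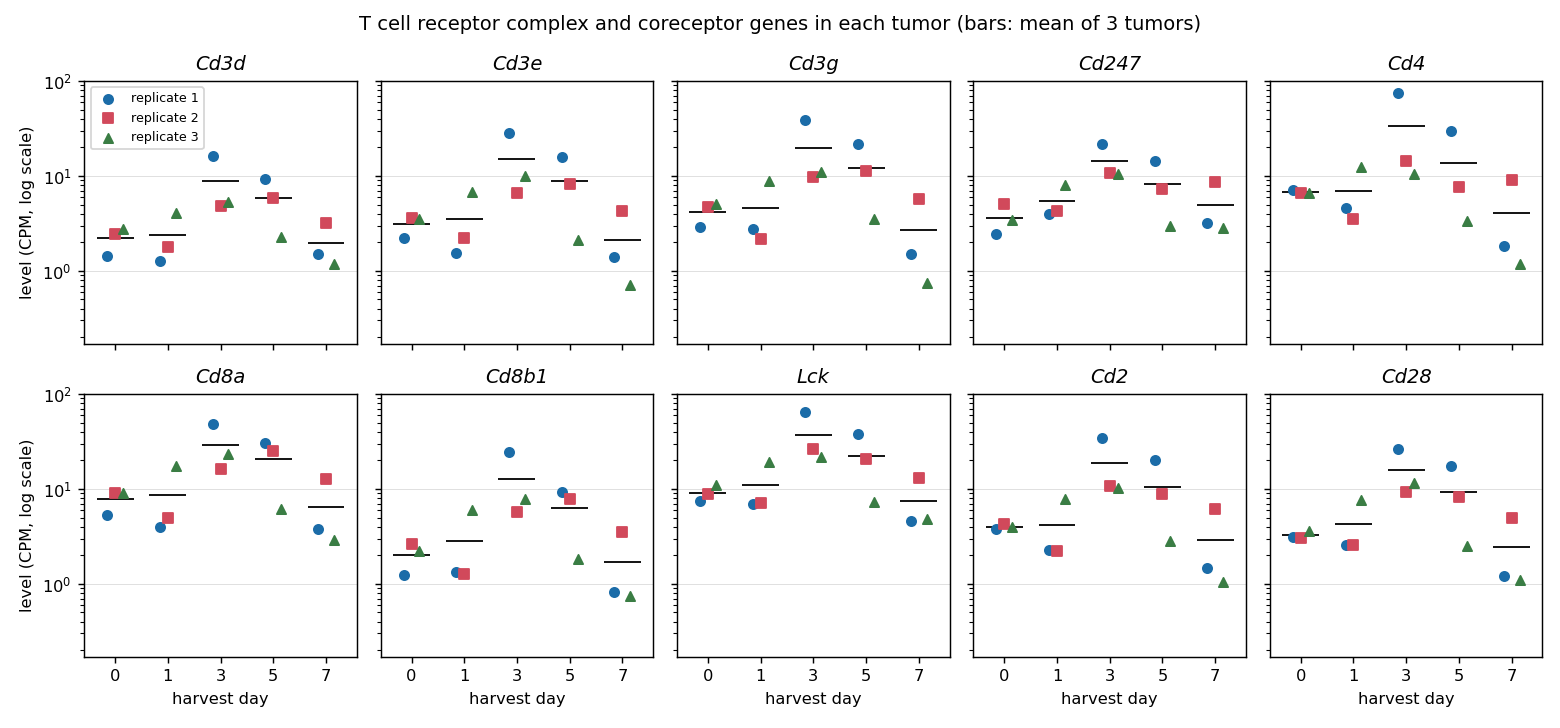
Level of each of the 10 genes (CPM, log scale) by harvest day, with 1 point per tumor, marked by replicate number, and a bar at the mean of 3 tumors. Day 3 replicate 1 is the highest tumor in all 10 panels and day 5 replicate 1 the second highest, while the day 3 tumors all lie above the day 0 tumors.

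The same tumors were high or low for nearly every gene. Day 3 replicate 1 was highest in 10 of 10 genes, day 5 replicate 1 second in 10 of 10, and day 7 replicate 3 lowest in 8 of 10. Within a day, the highest tumor exceeded the lowest by a median over the 10 genes of 1.67 times among the untreated tumors, 3.57 times at day 1, 3.41 times at day 3, 5.74 times at day 5 and 4.62 times at day 7. The day 0 tumors were thus the most alike. On day 1, replicate 3 was between the 4th and 6th highest tumor in every gene, whereas replicates 1 and 2 ranked between 9th and 14th. On day 5, replicate 3 lay below day 5 replicates 1 and 2 in all 10 genes, and on day 7 replicate 2 lay above day 7 replicates 1 and 3 in all 10. Averaged over the 10 genes, log2 CPM was 2.03 ± 0.30 in the untreated tumors (SD, n = 3 tumors here and below) and 2.06 ± 0.95 at day 1. It was 3.98 ± 0.96 at day 3, then 3.08 ± 1.28 at day 5, and ended at 1.40 ± 1.14 at day 7.

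The first question was whether levels on each treated day differed from those of untreated tumors. The fitted level of all 10 genes was higher at day 3 than in untreated tumors. Their median log2 fold change was 2.22, against -0.02 over all genes tested, but no gene passed the adjusted threshold of 0.05. Cd8b1 had the largest difference, 2.66 ± 0.87 (log2 fold change ± SE), with an adjusted p of 0.115 from edgeR's quasi-likelihood test. The other coreceptors were at 2.29 ± 0.98 for Cd4 (adjusted p = 0.149, edgeR) and 1.91 ± 0.75 for Cd8a (adjusted p = 0.131, edgeR). Among the signaling chains, Cd3e was at 2.29 ± 0.85 (adjusted p = 0.123, edgeR), Cd3g at 2.22 ± 0.86 (adjusted p = 0.131, edgeR), Cd3d at 1.99 ± 0.65 and Cd247 at 1.98 ± 0.59 (adjusted p = 0.115 for both, edgeR). Cd28 was at 2.27 ± 0.75 and Lck at 2.03 ± 0.64 (adjusted p = 0.115 for both, edgeR), and Cd2 was at 2.22 ± 0.83 (adjusted p = 0.125, edgeR). All 10 genes had an unadjusted p under 0.05 in the higher direction, as did 18.3% of all genes tested. The day 3 and day 0 tumors did not overlap for any of the 10, as for 19.4% of all genes in that direction. Of all 15494 genes, 0% passed the adjusted threshold in edgeR, in this and in each other comparison, although 30% had an unadjusted p under 0.05 here.

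These values rested in part on the tool and on 1 tumor. DESeq2 put 9 of the 10 genes past the adjusted threshold, all but Cd4 (adjusted p = 0.0562, DESeq2), where 9.02% of all genes passed in that direction. When day 3 replicate 1 was left out, the edgeR median over the 10 genes was 1.40, from 0.88 for Cd4 to 1.76 for Cd8b1. Then 3 genes, Cd247, Lck and Cd28, had an unadjusted p under 0.05, against 6.52% of all genes in that direction, and the adjusted p ranged from 0.367 to 0.649 in edgeR. In DESeq2 without that tumor, 0 of the 10 passed the adjusted threshold (0.28% of all genes) and 4 had an unadjusted p under 0.05 (7.26% of all genes), both in the higher direction. All 10 fold changes remained above 0, but their median of 1.40 was then no larger than the day 5 median of 1.42 in the same fit. That fit kept day 5 replicate 1. Leaving out that day 5 tumor instead gave a day 5 median of 0.74.

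**Figure D2:**
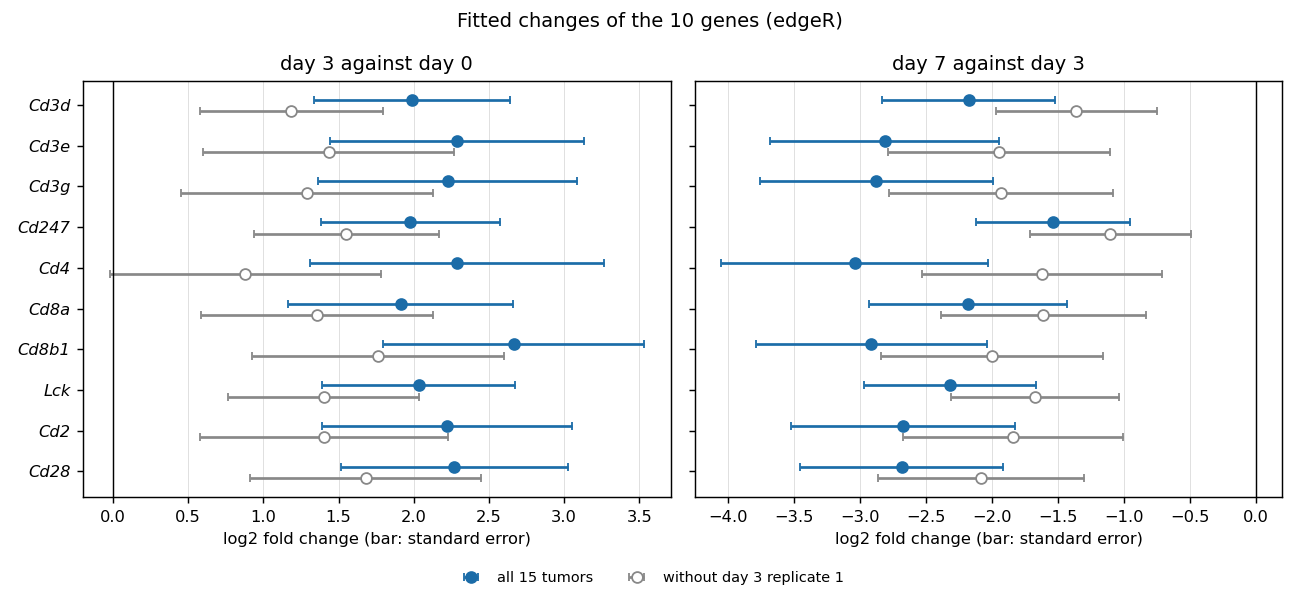
Fitted log2 fold change of each of the 10 genes for day 3 against day 0 (left) and day 7 against day 3 (right), with bars of 1 standard error, for all 15 tumors (filled) and without day 3 replicate 1 (open). Every point on the left is above 0 and every point on the right below 0, and leaving out the tumor moves each closer to 0.

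On the other treated days, the tumors overlapped with the untreated ones for each of the 10 genes. On day 1, the median of the 10 log2 fold changes was 0.18, from 0.01 for Cd4 to 0.58 for Cd247, with standard errors of 0.58 to 0.95. On day 5, it was 1.40, from 0.99 for Cd4 to 1.65 for Cd8b1, and the adjusted p ranged from 0.859 to 0.882 in edgeR. Day 5 replicates 1 and 2 stood above the day 0 tumors in all 10 genes, whereas day 5 replicate 3 did not. On day 7, the median was -0.35, from -0.75 for Cd4 to 0.44 for Cd247, with 9 genes lower and 1 higher and an adjusted p of 1 for each in edgeR. In all 3 comparisons, 0 of 10 genes passed the adjusted threshold in edgeR or in DESeq2, and 0 of 10 had an unadjusted p under 0.05 in edgeR (in DESeq2, 6 on day 5, against 6.31% of all genes, and 0 on days 1 and 7). Over all genes tested in edgeR, the share at an unadjusted p under 0.05 was 3.16%, 4.8% and 2.07% for days 1, 5 and 7.

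The second question was whether the levels differed between day 3 and the last harvest. The fitted level of all 10 genes was lower at day 7 than at day 3 (median log2 fold change -2.68, against 0.02 over all genes tested), and none passed the adjusted threshold in edgeR. Cd4 had the largest difference, -3.04 ± 1.01 (adjusted p = 0.0850, edgeR), then Cd8b1 with -2.91 ± 0.88, Cd3g with -2.88 ± 0.89 and Cd3e with -2.81 ± 0.87 (adjusted p = 0.0832 for these 3, edgeR). Cd28 was at -2.68 ± 0.77, Lck at -2.32 ± 0.65 and Cd3d at -2.18 ± 0.66 (adjusted p = 0.0832 for these 3, edgeR), while Cd2 was at -2.67 ± 0.85 (adjusted p = 0.0835, edgeR). Cd8a was at -2.18 ± 0.75 (adjusted p = 0.0887, edgeR), and Cd247 had the smallest difference, -1.54 ± 0.59 (adjusted p = 0.101, edgeR). The 10 genes had an unadjusted p under 0.05 and no overlap between the days, each in the lower direction, as did 22.6% and 18.4% of all genes. DESeq2 put all 10 past the adjusted threshold, where 15% of all genes passed in that direction. Leaving out day 3 replicate 1 gave an edgeR median of -1.76, with 7 genes at an unadjusted p under 0.05, against 8.48% of all genes in that direction. Leaving out day 3 replicate 3, in contrast, put 6 of the 10 past the adjusted threshold in edgeR, against 10.1% of all genes in that direction. With at most 6 daily doses, dosing had ended before the day 7 harvest, whereas the day 3 tumors were taken during it. The part of dosing in this difference was not tested. This comparison of day 7 and day 3 shares the day 3 tumors with the comparison of day 3 and day 0, so the pair are not independent.

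A single test over the 4 treated days against day 0 gave an unadjusted p under 0.05 for 10 of 10 genes, as for 16.2% of all genes, and an adjusted p of 0.292 to 0.301 in edgeR. DESeq2 put 9 of the 10 past the adjusted threshold, as it did 7.65% of all genes. With day 3 replicate 1 left out, 1 of the 10 had an unadjusted p under 0.05 in edgeR, against 7.22% of all genes, and 0 of the 10 passed the adjusted threshold in DESeq2 (1.14% of all genes), with 7 at an unadjusted p under 0.05 (12.1% of all genes).

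The Cd8a to Cd4 ratio, a crude measure of the balance of cytotoxic and helper T cell RNA, varied more within days than between them. It is the ratio of counts, and the intervals in brackets are exact 95% intervals for counting error only. On day 0 it was 0.745 (0.603 to 0.920), 1.37 (1.12 to 1.67) and 1.36 (1.11 to 1.67) in replicates 1 to 3. On day 1 it was 0.849 (0.659 to 1.09), 1.40 (1.05 to 1.86) and 1.39 (1.22 to 1.59), so that on each of these days 1 tumor had fewer Cd8a than Cd4 counts, on day 1 within counting error. The day 3 tumors spread further, at 0.644 (0.599 to 0.693), 1.13 (0.984 to 1.30) and 2.22 (1.92 to 2.58). On day 5 it was 1.02 (0.927 to 1.13), 3.31 (2.83 to 3.87) and 1.83 (1.41 to 2.38), and on day 7 it was 2.07 (1.43 to 3.02), 1.40 (1.18 to 1.66) and 2.46 (1.57 to 3.97). The lowest ratio of all tumors was in day 3 replicate 1, which had the highest level of both genes, and the highest was in day 5 replicate 2.

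On the log2 scale, with 0.5 added to each count, the mean ratio was 0.16 in untreated tumors, 0.24 at day 1, 0.23 at day 3, 0.87 at day 5 and 0.94 at day 7. The day 7 tumors were all above the day 0 tumors, by a mean of 0.78, with p = 0.1 in an exact two-sided permutation test. This is the smallest p that 3 tumors against 3 can give, so no pair of days could reach 0.05. Day 5 was above day 0 by 0.72 (exact permutation p = 0.3; 0.29 without day 5 replicate 2), day 7 above day 3 by 0.70 (exact permutation p = 0.3; 0.27 without day 3 replicate 1), day 1 above day 0 by 0.09 (exact permutation p = 0.5) and day 3 above day 0 by 0.08 (exact permutation p = 1). Over the 5 days together, 29.4% of the variance of the log2 ratio lay between days (exact permutation p = 0.436 over 15 tumors, adjusted p = 0.531 over the 4 ratios tested). With Cd8b1 in place of Cd8a, 33.3% lay between days (exact permutation p = 0.369), and the day 7 and day 0 tumors overlapped.

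**Figure D3:**
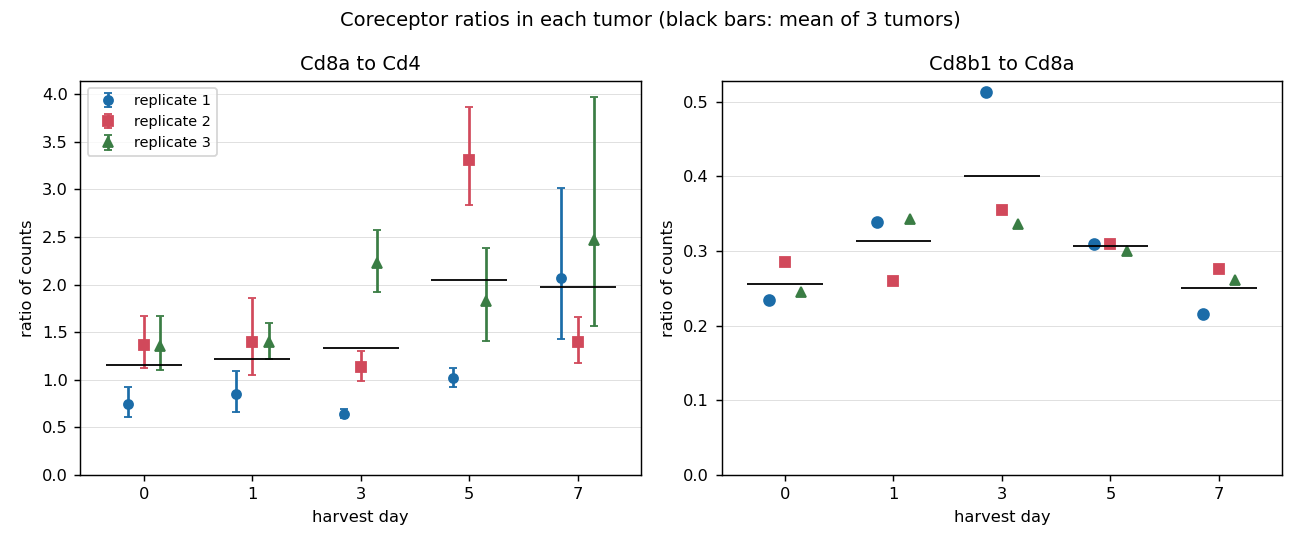
Ratio of Cd8a to Cd4 counts (left, with exact 95% intervals for counting error) and of Cd8b1 to Cd8a counts (right) by harvest day, with 1 point per tumor and a black bar at the mean of 3 tumors. The Cd8a to Cd4 ratio runs from 0.644 to 3.31 with wide spread inside days 3 and 5, whereas the Cd8b1 to Cd8a ratio has its highest mean on day 3, with day 3 replicate 1 at 0.513.

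The Cd8b1 to Cd8a ratio differed between days with all 15 tumors, a call that depended on single tumors. CD8 on conventional cytotoxic T cells pairs an alpha with a beta chain, whereas some dendritic cells and innate-like lymphocytes carry alpha chains alone. The ratio of counts was 0.234, 0.286 and 0.246 in the untreated tumors, 0.339, 0.260 and 0.343 at day 1, 0.513, 0.354 and 0.336 at day 3, 0.309, 0.310 and 0.300 at day 5, and 0.215, 0.275 and 0.261 at day 7. The day 3 and day 5 tumors were all above the day 0 tumors, and the day 7 tumors overlapped with day 0. No interval for counting error was computed for this ratio. The lowest day 5 tumor, at 0.300, had 51 Cd8b1 and 170 Cd8a counts. The highest day 0 tumor, at 0.286, had 70 and 245, so this separation is narrow. Of the variance of the log2 ratio, 65.9% lay between days (exact permutation p = 0.00671 over 15 tumors, adjusted p = 0.0268 over the 4 ratios). Leaving out day 3 replicate 1, which had the highest ratio, 65.9% lay between days with an exact permutation p of 0.0364, which is 0.146 when adjusted over the 4 ratios, so the call was lost. It was lost for 7 of the 15 tumors left out in turn. Day 3 was above day 0 by 0.62 on the log2 scale and the day 7 minus day 3 difference was -0.64, with an exact permutation p of 0.1 for each, the lowest value possible with 3 tumors against 3. The summed level of dendritic cell markers was 45.5 to 70.9 CPM on day 0 and 282, 87.4 and 97.0 CPM on day 3. For 4 of the 8 markers the day 3 tumors were all above day 0, as for 19.4% of all genes. Clec9a overlapped, at 1.79 to 3.50 CPM on day 0 and 9.30, 2.98 and 3.15 CPM on day 3. Xcr1 did not, at 1.01 to 2.16 CPM on day 0 and 9.18, 2.61 and 3.62 CPM on day 3. The part of dendritic cells in this ratio was not tested. The 2 other ratios tested did not pass: for Cd4 to Cd3e, 25.0% of the variance lay between days (exact permutation p = 0.531, adjusted 0.531), and for Cd8a to Cd3e, 43.3% (exact permutation p = 0.181, adjusted 0.363).

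Compared per kilobase of the longest principal transcript, Lck, Cd3g and Cd2 were the most abundant of the 10 on days 0, 1, 3 and 5, and Cd28 was the least on each day. On day 0 the means were 4.18 CPM per kb for Lck, 4.12 for Cd3g and 3.46 for Cd2, whereas Cd8b1 was at 1.36, Cd3d at 1.37 and Cd28 at 0.748 CPM per kb. Lck and Cd3g differed by less than the spread of their tumors. Between these ends, Cd8a was at 2.50, Cd247 at 2.22, Cd4 at 2.19 and Cd3e at 2.11 CPM per kb, which are neighbors that did not differ beyond their spread either. On day 3 the first 3 places went to Cd3g at 19.2, Lck at 17.1 and Cd2 at 16.1 CPM per kb, and Cd28 was again last at 3.61 CPM per kb. On day 7 Cd247, at 3.00 CPM per kb, came between Lck at 3.42 and Cd3g at 2.61 CPM per kb. Which transcripts the counts were summed over was not stated, so the lengths are an approximation.

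Across the 15 tumors the 10 genes went up and down together. Over their 45 pairs, Pearson's r of log2 CPM ranged from 0.872 to 0.989 with a median of 0.971, and without day 3 replicate 1 the median was 0.962. The points share libraries and a day structure, so these values are a description. The 10 other genes most like the mean of the members over 15 tumors included Satb1 (r = 0.995), Tbc1d10c (r = 0.991), Gimap1 (r = 0.990), Gimap3 (r = 0.990), Ppp1r16b (r = 0.990), Cd27 (r = 0.990), Skap1 (r = 0.990), Sept1 (r = 0.990) and Gimap4 (r = 0.989). Cd27 encodes a costimulatory receptor and Skap1 an adaptor of T cells. When day 3 replicate 1 was left out, 7 of these 10 were again among the 10 most alike. Ltb (r = 0.987), Sirpa (r = 0.987) and Prkch (r = 0.986) then came in. Which cells carried the RNA of these genes was not tested.

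The constant region genes of the receptor itself were higher on day 3 as well, though not all without overlap. Trac, which encodes the constant region of the alpha chain, was at 3.10, 4.39 and 4.68 CPM on day 0, 31.8, 7.50 and 10.5 CPM on day 3 and 1.10, 5.97 and 1.34 CPM on day 7. Of 11 constant region genes listed, 8 were in the table and 7 were tested. On day 3 all 7 were higher than on day 0 with an unadjusted p under 0.05, as were 18.3% of all genes. The median log2 fold change of the 7 was 2.44. In edgeR 0 passed the adjusted threshold and in DESeq2 4 did, against 9.02% of all genes in that direction. Trac was at 2.03 ± 0.85, Trbc1, of the beta chain, at 2.44 ± 0.83, and Trdc, of the delta chain, at 2.23 ± 0.64 (log2 fold change ± SE). Trbc1 and Trbc2 are nearly identical copies, so their split is uncertain. Trbc2 was at 7.01, 11.2 and 12.5 CPM on day 0, at 39.9, 13.8 and 11.4 CPM on day 3 and at 13.0, 10.6 and 7.69 CPM on day 7, so its day 3 tumors overlapped with both other days. Leaving that tumor of day 3 (replicate 1) out gave a median of 1.53. Then 3 genes were higher at an unadjusted p under 0.05, against 6.52% of all genes. From day 3 to day 7 all 7 were lower, with a median of -2.52.

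The signaling genes next to the receptor gave a similar picture. Of 22 genes listed, 21 were tested, and at day 3 the fitted level of 19 was higher and of 2 lower than at day 0. The median log2 fold change was 1.61, and 18 had an unadjusted p under 0.05, all higher, against 18.3% of all genes. DESeq2 put 15 past the adjusted threshold, against 9.02% of all genes in that direction, and edgeR 0. Grap2, an adaptor, was at 1.94 ± 0.53, Lcp2, the adaptor SLP-76, at 1.65 ± 0.50, Fyb, an adhesion adaptor, at 1.56 ± 0.41 and Nfatc2, a transcription factor, at 1.42 ± 0.37 (adjusted p = 0.115 for each, edgeR). Ptprc, the phosphatase CD45 of all leukocytes, was at 1.61 ± 0.49, whereas Plcg1, which many cell types express, was at -0.18 ± 0.11 (adjusted p = 0.25, edgeR). Lcp2 had 578 to 5014 counts per tumor and Fyb 696 to 5805, against 17 to 708 for Cd3e. Which cells carried the RNA of this list was not tested. The list's median was 1.16 without day 3 replicate 1, with 8 higher at an unadjusted p under 0.05, against 6.52% of all genes. From day 3 to day 7, 19 of 21 were lower, 18 of them at an unadjusted p under 0.05, against 22.6% of all genes.

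Genes that restrain receptor signaling were also higher on day 3. All 13 were higher at day 3 than at day 0 (median log2 fold change 0.90), 10 of them at an unadjusted p under 0.05. For this list and the next 3, the share of all genes higher at that p was 18.3%. Ptpn6, the phosphatase SHP-1, was at 1.42 ± 0.44, Dgkz, a lipid kinase, at 0.65 ± 0.19 and Csk, which inhibits LCK, at 0.29 ± 0.11, whereas Ptpn22 was at 0.21 ± 0.25. Ptpn6 had 1077 to 7597 counts per tumor and Csk 2860 to 4646, against 17 to 708 for Cd3e. Which cells carried this RNA was not tested. Of 11 further costimulation receptors, all 11 were higher, with a median of 1.90 and 8 at an unadjusted p under 0.05, among them Cd48 at 1.91 ± 0.55, Slamf6 at 1.76 ± 0.68 and Icos at 1.65 ± 0.74, while Tnfrsf9 was at 0.07 ± 0.35. The 8 lymphoid homing genes were all higher, with a median of 1.39 and 5 at an unadjusted p under 0.05. T cell lineage regulators were mixed, with 8 of 10 higher, a median of 0.42, 4 at an unadjusted p under 0.05 higher and 2 lower (1819 of all 15494 genes were lower at that p). Tcf7, the regulator TCF-1, was at -0.85 ± 0.20 and Runx3 at 0.29 ± 0.24. Tcf7 had 1099 to 4135 counts per tumor, the most in day 0 replicate 1, where Cd3e had 65 counts. The cells that carried Tcf7 RNA were not tested. In each of these 4 lists 0 genes passed the adjusted threshold in edgeR, whereas DESeq2 passed 4 of 13 restraint, 4 of 11 costimulation (1 had no adjusted p), 5 of 8 homing and 5 of 10 lineage genes, the last with 3 higher. Of all genes, 9.02% passed in DESeq2 in the higher direction and 12.9% in either. The medians of the 4 lists without day 3 replicate 1 were 0.51, 1.21, 1.08 and 0.20, respectively. Then 3 of 13 restraint, 1 of 10 costimulation, 2 of 8 homing and 0 of 10 lineage genes were higher at an unadjusted p under 0.05, against 6.52% of all genes.

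Markers of several other cell types were also higher on day 3, where 18.3% of all genes had an unadjusted p under 0.05 in that direction. All 7 natural killer cell markers tested were higher at day 3 (median log2 fold change 2.11, 7 at an unadjusted p under 0.05), as were 8 of 8 B cell markers (1.81, 6), 8 of 9 macrophage markers (1.56, 8) and 8 of 8 dendritic cell markers (1.27, 2). None of these passed the adjusted threshold in edgeR, whereas DESeq2 passed 3, 4, 8 and 2, respectively, with no adjusted p for 1 natural killer cell marker. Of all genes, 9.02% passed in DESeq2 in that direction. The lymph node stroma markers had a median of 3.66 over 4 tested, and the skeletal muscle and adipocyte markers had medians of 3.17 and 1.95. Without day 3 replicate 1, the medians were 1.53 for natural killer cells, 1.10 for B cells, 1.01 for macrophages, 0.45 for dendritic cells, 0.67 for lymph node stroma, -0.17 for muscle and 0.17 for adipocytes. At an unadjusted p under 0.05, 3 of 6 natural killer cell, 3 of 7 B cell, 7 of 9 macrophage and 0 of 8 dendritic cell markers were then higher, against 6.52% of all genes. Ncr1, the natural killer cell receptor NKp46, was at 3.54 to 5.49 CPM on day 0 and at 45.9, 19.4 and 12.5 CPM on day 3. The lymph node marker Ccl21a, a chemokine of stroma, had 0 counts in 4 tumors and 1323 counts in day 3 replicate 1. The part of these cells and tissues in the levels of the 10 genes was not tested.

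**Figure D4:**
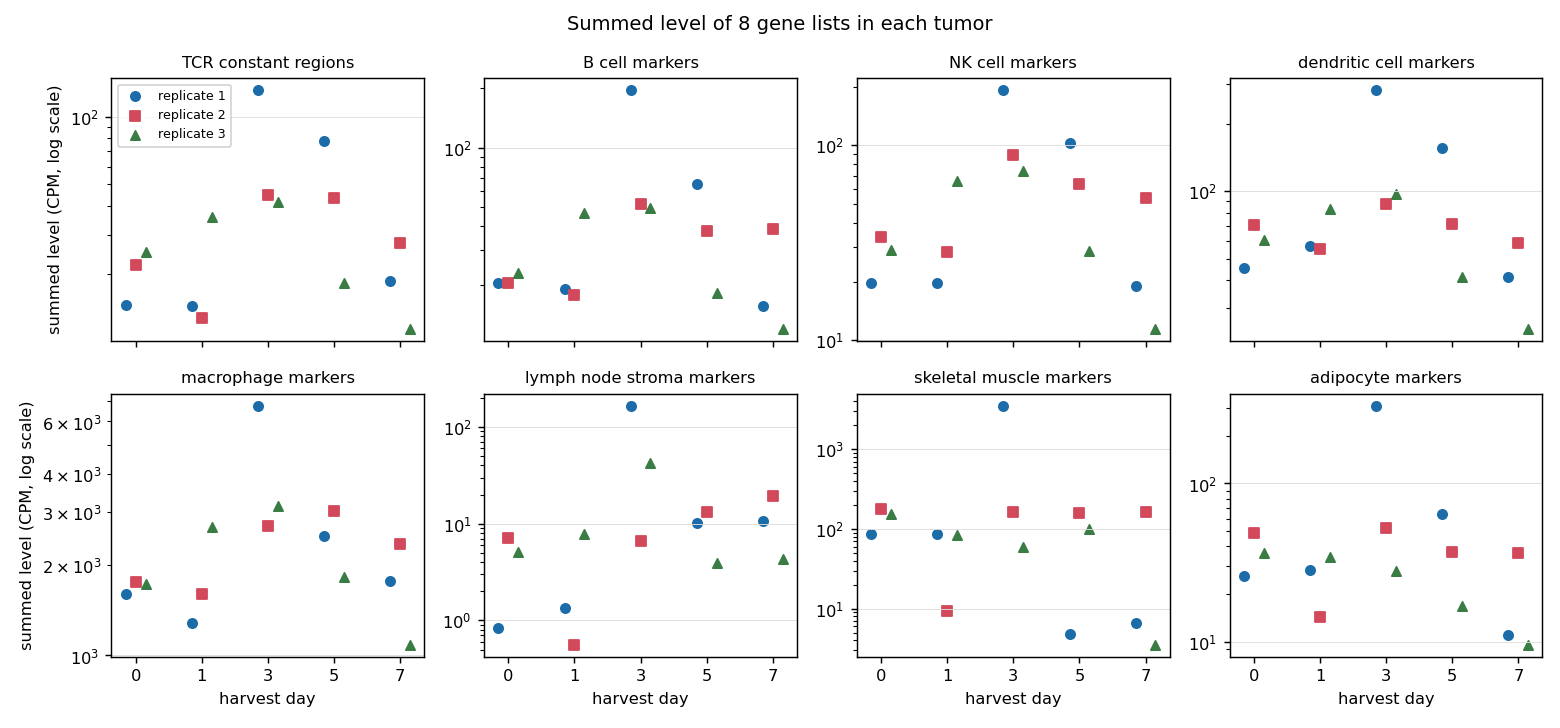
Summed level (CPM, log scale) of 8 gene lists by harvest day, with 1 point per tumor, marked by replicate number. Day 3 replicate 1 is the highest tumor in every panel, at 3483 CPM for skeletal muscle markers, whereas the other day 3 tumors exceed all day 0 tumors for the constant regions and the B cell, natural killer cell, dendritic cell and macrophage lists.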

How the data were processed

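Poly(A) RNA of 15 tumors was sequenced on an Illumina HiSeq (single-end, 100 bases). The authors estimated transcript abundance with kallisto, summed it to genes with tximport on the GRCm38 (mm10) reference, and deposited estimated counts as integers for each gene, which needed no rounding. The transcript set and the strandedness were not stated. Kallisto divides shared reads, so near-identical copies are uncertain. 1 entry named as a date, with at most 0.0268% of a tumor's counts, was left out. Genes above about 9 to 12 counts in at least 3 tumors were kept, a filter the study states.

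edgeR 4.0.16 (R 4.3.3) was fitted to all 15 tumors with TMM factors and harvest day as the only term, and p-values of the quasi-likelihood test were adjusted by Benjamini-Hochberg over 15494 genes. Ratios were tested by exact permutation. The script was tested on simulated counts. Alternatives were DESeq2 1.42.0, RLE factors, no filter, only the compared days, a replicate block, another pseudocount and leaving out each tumor. Replicate libraries differed by more than sampling noise (chi-square per degree of freedom of 9.32 or more). Text names the 10 members, and of each list the most abundant genes plus, for proximal signaling, those with the lowest p on day 3; some that this rule names are not reported here. Trac, Ncr1, Ccl21a, Clec9a and Xcr1 levels per tumor were chosen after values were seen. List counts in DESeq2 or without day 3 replicate 1, tests of 2 days for the Cd8b1 to Cd8a ratio, ratio p-values adjusted within each alternative and the day 3 means without replicate 1 were added after the data were seen. The members and lists were chosen with earlier results of these data known. No protein sequence was used here.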

Additional observations from a re-analysis of the deposited data

Results flagged for a closer look

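The Cd8b1 to Cd8a ratio differed between harvest days, with 65.9% of the variance of its log2 value between days (exact permutation p = 0.00671, adjusted p = 0.0268 over 4 ratios). With 1 tumor left out at a time, the p adjusted over 4 ratios ranged from 0.00935 (without day 1 replicate 2) to 0.146 (without day 3 replicate 1), and it was above 0.05 in 7 of 15 cases, so the call depended on single tumors. No pair of days could reach 0.05 with 3 tumors each.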

How the results depend on the processing

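No member passed edgeR's adjusted threshold under RLE factors, no filter, only the compared days or the replicate block. DESeq2 called 9 members on day 3 against day 0 (12.9% of all genes), 10 on day 7 against day 3 (20.9%) and 9 over any treated day (7.65%). Leaving out 1 tumor moved the edgeR count called on day 7 against day 3 from 0 to 6 (without day 3 replicate 3, 13.6% of all genes). Counts at an unadjusted p under 0.05 on day 5 against day 0 were 6 in DESeq2 (6.31% of all genes), 2 without the filter (3.93%), 6 with only the compared days (13.2%) and 8 in DESeq2 without day 3 replicate 1 (11%), which was added after the data were seen, and ranged from 0 to 9 (without day 5 replicate 3, 10% of all genes) with 1 tumor left out. On day 3 against day 0 that DESeq2 fit gave 4 members (14.3% of all genes) and a median of 1.40. With 1 tumor left out, the edgeR count ranged from 3 (without day 3 replicate 1, 13.1% of all genes) to 10 (such as without day 7 replicate 3, 28.2%). It was 5 without day 0 replicate 1 (16.9%), and the median ranged from 1.40 to 2.53. For day 7 against day 3 the median ranged from -3.80 (without day 7 replicate 2) to -1.76 (without day 3 replicate 1). The count at an unadjusted p under 0.05 ranged from 7 (without day 3 replicate 1, 15.7% of all genes) to 10 (such as without day 7 replicate 2, 37%). For any treated day that count ranged from 1 (without day 3 replicate 1, 7.22%) to 10 (such as without day 7 replicate 2, 19.4%). The median on day 1 ranged from -0.66 (without day 1 replicate 3) to 0.52, on day 5 from 0.74 to 1.85, and on day 7 against day 0 from -1.43 (without day 7 replicate 2) to -0.052. The Cd8a to Cd4 difference ranged from -0.20 to 0.32 on day 1 and from -0.39 to 0.51 on day 3, from 0.29 (without day 5 replicate 2) to 1.14 (without day 5 replicate 1) on day 5, and from 0.27 (without day 3 replicate 1) to 1.16 (without day 3 replicate 3) for day 7 against day 3. The share of variance of Cd8b1 to Cd8a between days ranged from 63.7% to 72.8%, and its call was lost without day 0 replicate 1 or 3, day 3 replicate 1, day 5 replicate 2 or 3, or day 7 replicate 1 or 3 (adjusted p 0.0569 to 0.146 by exact permutation). The share of variance of Cd8a to Cd3e ranged from 30.3% to 60.8% (without day 5 replicate 1, adjusted p = 0.0430 by exact permutation). The cause of these shifts was not tested. DESeq2 gave no adjusted p for any of the 10 members on day 7 against day 3 without day 3 replicate 1.

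Of 30 same-number pairs of days, 9 had deviations correlated above 0.1, with values over all pairs from -0.62 to 0.51. No reference was computed for these values, so they cannot settle whether replicate numbers pair the tumors. With the replicate block, edgeR called 0 members, with 8 at an unadjusted p under 0.05 on day 3 against day 0 (24.7% of all genes), 10 on day 7 against day 3 (30.5%) and 4 over any treated day (8.55%). For the Cd8b1 to Cd8a ratio the block gave 66.5% between days and an exact permutation p of 0.0149, or 0.0594 adjusted over 4 ratios, so the call was lost. With 3 tumors a day, no exact test of 2 days could go below 0.1.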
